A study of Mus musculus with 2 samples.

Results

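The mitochondrial genome transcripts are the 37 genes of the mouse mitochondrial chromosome, taken as all gene rows whose identifier carries a symbol that begins with mt-. They are 13 mRNAs, 2 rRNAs and 22 tRNAs, out of 43346 mouse genes and 69691 entries in the deposited gene tables. They were measured by total RNA-seq in kidneys of healthy B6NCrl mouse embryos at 16.5 days of development, with no genetic change or treatment named in the labels. The samples form 1 group of 2 libraries, labelled biological replicates 2 and 1, each from a pool of kidneys of male and female embryos. The pool of replicate 2 came from 41 embryos, and the sources used here do not give the size of the other pool. The RNA was over 200 nt long, 10 ng entered each library, and external spike-in RNAs were added. Replicate 2 held 38706236 expected counts and replicate 1 held 35255968, where a read that matches several genes is divided among them. Spike-ins made up 2.08% of counts in replicate 2 and 2.82% in replicate 1. With 1 group there is no test between conditions, so levels are given per library and as mean ± SD (n = 2), and a ratio between the libraries compares these pools.

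Mitochondrial DNA is a small circle of which each cell holds many copies. A single dedicated RNA polymerase, Polrmt, transcribes both strands into long precursors that run through many genes. The tRNAs lie between most of the mRNAs and rRNAs, and their excision by RNase P and Elac2 releases the other RNAs. The mRNAs all encode hydrophobic subunits of respiratory complexes I, III, IV and V, and the rRNAs form the ribosome that translates them inside the organelle. The levels of mRNAs cut from one precursor can differ through processing and decay. Tubule cells of the kidney are rich in mitochondria once they take up ion transport. Stretches of mitochondrial DNA have also moved into the nuclear chromosomes, where they are annotated as pseudogenes.

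Sequence decides which of these RNAs a table can tell apart, so the sequences on which the values turn are shown before the values. All come from GENCODE M21 on GRCm38, where the 37 genes have the same identifier versions and lengths as in the deposited tables. In the deposited tables the effective length of each of the 26303 entries with a single transcript and an effective length above 0 equals the number of positions at which a 100-nt window can start. Such windows are used here to measure what a gene shares with others. A total of 7 nuclear gene models on the minus strand of chr1:24611535-24616197 carry mt-Co1, mt-Co2, mt-Atp6, mt-Co3, mt-Nd3, mt-Nd4l and mt-Nd4 sequence in the order of the mitochondrial map. A further 3 models on chr2:22587291-22590533 and 1 on chromosome 13 matched mt-Co2, mt-Co1, mt-Nd2 and mt-Nd5 over at least 100 nt at 95% identity or more.

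The end of mt-Co3, which encodes a core subunit of cytochrome c oxidase, is shown because it holds the only difference between this mRNA and its nuclear copy Gm28437. The capital is the last base of mt-Co3 (chrM:9351-9390, plus strand), which the copy (chr1:24613189-24613227, minus strand) lacks.
mt-Co3: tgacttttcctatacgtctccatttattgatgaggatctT
Gm28437: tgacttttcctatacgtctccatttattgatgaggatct
Of the 685 windows of mt-Co3, 684 were also in Gm28437, and the window that ends in this T was the only other one. For mt-Co2, mt-Atp6 and mt-Nd4l, 3 windows each were absent from the copy, all at the 3′ end, where the mitochondrial model holds a stop codon TAA that the nuclear model leaves out.

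The start of mt-Nd3, a complex I subunit, is shown because it carries a base that differs from the nuclear copy Gm28438. The differing base is in capitals, T3C, counted from 1 at the first base of mt-Nd3 (chrM:9459-9498, plus strand, against chr1:24613080-24613119, minus strand).
mt-Nd3: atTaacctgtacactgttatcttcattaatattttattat
Gm28438: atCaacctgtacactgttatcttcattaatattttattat
This base kept 3 windows at the 5′ end apart, and the stop codon another 3 at the 3′ end, so that 243 of 249 windows of mt-Nd3 were shared.

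A stretch of mt-Co2, the copper-binding oxidase subunit, is shown to contrast the near-identical and the more diverged copy. Capitals mark the bases at which Gm13341 differs, T231C, T255C and T291G counted from the first base of mt-Co2, in chrM:7224-7303 on the plus strand, chr1:24615275-24615354 and chr2:22587672-22587751 on the minus strands.
mt-Co2: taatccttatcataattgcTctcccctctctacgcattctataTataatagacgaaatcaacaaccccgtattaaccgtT
Gm28661: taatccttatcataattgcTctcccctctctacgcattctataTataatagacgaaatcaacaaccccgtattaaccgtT
Gm13341: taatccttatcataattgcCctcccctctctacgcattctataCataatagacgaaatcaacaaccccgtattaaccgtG
The copy on chromosome 1 differed at 0 of these 80 bases and the copy on chromosome 2 at 3. Over its full alignment Gm13341 was 95.9% identical to mt-Co2 and held 88 of the 585 windows of mt-Co2.

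The shared stretch of mt-Atp8 and mt-Atp6 is shown because both mRNAs hold the same 43 nt (capitals, chrM:7927-7969). They encode subunits of the membrane-embedded part of ATP synthase. The end of mt-Atp8 is from chrM:7910-7969 and the start of mt-Atp6 from chrM:7927-7986, both on the plus strand.
mt-Atp8: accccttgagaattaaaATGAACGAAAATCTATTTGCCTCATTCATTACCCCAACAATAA
mt-Atp6: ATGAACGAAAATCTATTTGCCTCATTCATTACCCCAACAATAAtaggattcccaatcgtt
No 100-nt window lies within 43 nt, so no window was shared between these 2 mRNAs. They belong to 1 transcript in the cell, and a read that reaches past the shared stretch on both sides fits neither model whole. The mRNAs of mt-Nd4l and mt-Nd4 likewise overlap by 7 nt.

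The ends of mt-Nd5 and mt-Nd6 are shown because these complex I subunits overlap on opposite strands. Capitals mark the 14 shared positions, chrM:13552-13565, within chrM:13536-13565 on the plus strand and chrM:13552-13581 on the minus strand.
mt-Nd5: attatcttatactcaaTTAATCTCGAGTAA
mt-Nd6: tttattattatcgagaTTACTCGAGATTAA
mt-Nd6 was the only mRNA of the light strand, against 12 of the heavy strand, and 8 of the 22 tRNAs were on the light strand. The sources used here do not say whether the libraries keep the strand. Reads from precursors antisense to a gene therefore cannot be told apart from its own.

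The shortest and the longest tRNA are shown because their length decides their value. They are mt-Ts2, a serine tRNA (chrM:11613-11671), and mt-Tl1, a leucine tRNA (chrM:2676-2750), both on the plus strand.
mt-Ts2: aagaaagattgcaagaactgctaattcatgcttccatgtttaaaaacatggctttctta
mt-Tl1: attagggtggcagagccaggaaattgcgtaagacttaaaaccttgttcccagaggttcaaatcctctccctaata
At 59 to 75 nt, all 22 tRNA genes were shorter than 1 window, and their effective length was 0. All 22 were listed at 0 counts in both libraries. Among all entries, 28399 were shorter than 100 nt, each had an effective length of 0, and 0 of them had a count above 0. The tRNA zeros thus give no limit on tRNA abundance, and the RNA was in addition selected to be over 200 nt.

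The ends of mt-Co3 (chrM:9372-9390), mt-Nd4 (chrM:11526-11544) and mt-Cytb (chrM:15270-15288) are shown because these plus-strand genes stop within a codon, which polyadenylation of the mRNA completes to a stop. The single base of the partial codon is in capitals.
mt-Co3: atttattgatgaggatctT
mt-Nd4: attacaggcctgacaataT
mt-Cytb: atactaaaattatatccaT
The models end at the encoded T, so the added A residues are not part of any window.

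All 13 mRNAs were detected in both libraries, and their row levels differed by a factor of 133 between the highest and the lowest. A level here is in TPM, which scales counts to effective length and to the same total in each library, so that genes can be compared. mt-Atp6 led with 7075 TPM in replicate 2 and 7307 TPM in replicate 1 (7191 ± 164), and the smaller ATP synthase gene mt-Atp8 followed with 4621 and 5196 TPM in the same libraries. These ranges of row TPM did not overlap each other or those of the other mRNAs. However, mt-Atp6 shares 99.5% of its windows with nuclear models. Its deposited lower and upper bounds were 5113 and 6793 TPM in replicate 2 and 5054 and 7563 TPM in replicate 1. The lower one in replicate 1 was under the upper bound of mt-Atp8, 5156 TPM. The first place of mt-Atp6 is therefore a place by row value only.

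mt-Cytb, mt-Nd1 and mt-Co1 came next, with windows that were mostly or wholly their own. mt-Cytb, the only mitochondrial subunit of complex III, stood at 2864 TPM in replicate 2 and 3378 TPM in replicate 1. mt-Nd1, a complex I subunit at the quinone site, stood at 2656 TPM in replicate 2 and 2957 TPM in replicate 1. mt-Co1, which holds the heme centres of cytochrome c oxidase, stood at 2653 TPM in replicate 2 and 2455 TPM in replicate 1. By row, mt-Cytb and mt-Nd1 overlapped between libraries, and both lay above mt-Co1, mt-Nd1 by a margin of a few TPM only. The order of mt-Co1 depends on its nuclear copies, mainly Gm29216, which had 2654 TPM in replicate 2 and 2479 TPM in replicate 1. The mt-Co1 row held 78.6% and 78.5% of their joint counts in the same libraries. With the counts of the copies added, mt-Co1 lay above mt-Nd1 and overlapped mt-Cytb. mt-Nd4 and mt-Nd2, membrane subunits of the proton-pumping arm of complex I, averaged 1184 ± 135 and 778 ± 78.9 TPM.

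The lowest mRNAs without a near-identical copy were mt-Nd5 and mt-Nd6, neighbours on opposite strands. mt-Nd5, the longest mRNA, had 321.9 TPM in replicate 2 and 431.4 TPM in replicate 1. mt-Nd6 had 406.5 TPM in replicate 2 and 566.8 TPM in replicate 1. The ranges of the 2 overlapped, although mt-Nd5 was below mt-Nd6 within each library, with a ratio of 0.792 in replicate 2 and 0.761 in replicate 1. mt-Cytb, the next heavy-strand mRNA after mt-Nd5, was 8.90 times as high as mt-Nd5 in replicate 2 and 7.83 times in replicate 1. The level therefore did not fall steadily along the heavy strand. mt-Nd6 made up 1.64% of the summed mRNA TPM in replicate 2 and 2.09% in replicate 1.

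The remaining rows, like mt-Atp6, share over 90% of their windows with a nuclear model. By row, mt-Co2 had 1219 TPM in replicate 2 and 1082 TPM in replicate 1. mt-Co3 had 827 TPM in replicate 2 and 1200 TPM in replicate 1. mt-Nd3 had 302.3 TPM in replicate 2 and 381.1 TPM in replicate 1, and mt-Nd4l was the lowest row with 53.07 and 55.05 TPM in the same libraries. Their deposited bounds, which enclose the posterior mean estimate of each row, were wide. For mt-Co3 the bounds ran from 593.3 to 6894 TPM in replicate 2 and from 498 to 7193 TPM in replicate 1. The ordering of these rows against the others is therefore not fixed by the row values.

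**Figure D1:**
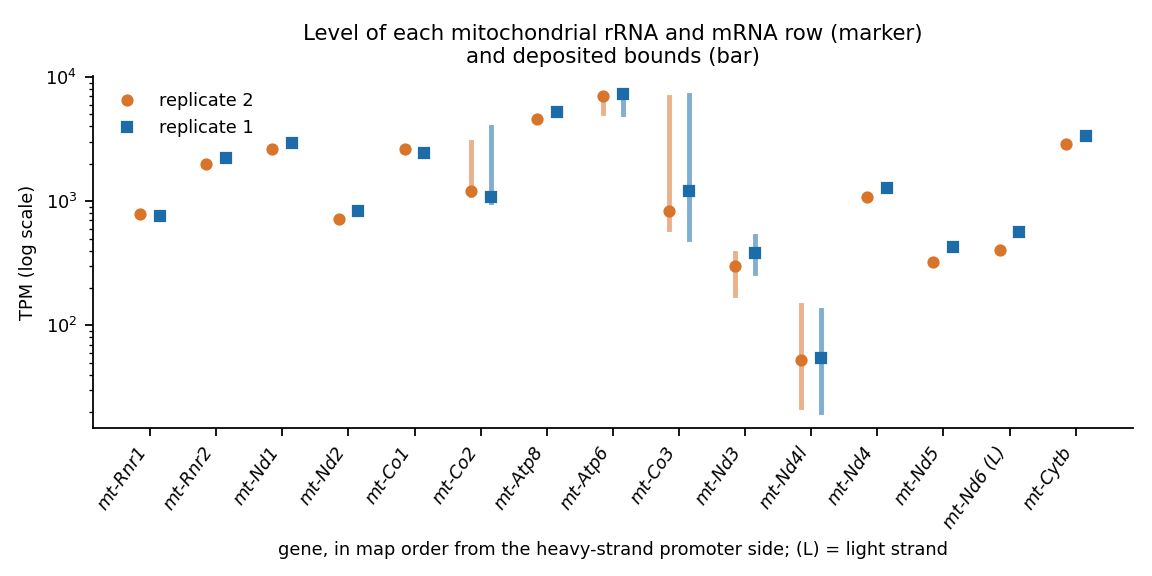
Level of the 2 rRNAs and 13 mRNAs in map order, in TPM on a log scale, with replicate 2 (circles) left of replicate 1 (squares) and the deposited lower and upper bounds as bars. The bars of mt-Co3 span more than a factor of 10, while those of the genes without near-identical nuclear copies are shorter than the markers.

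The 2 rRNA rows lay within the range of the mRNAs. mt-Rnr2, the large-subunit rRNA, had 1999 TPM in replicate 2 and 2222 TPM in replicate 1. mt-Rnr1, the small-subunit rRNA, had 781.9 TPM in replicate 2 and 760.2 TPM in replicate 1. Although the ribosome holds these RNAs in equal number, mt-Rnr2 was 2.56 times mt-Rnr1 in replicate 2 and 2.92 times in replicate 1. mt-Nd1, cut from the same precursor as both, was 1.33 times mt-Rnr2 in each library (1.329 in replicate 2 and 1.331 in replicate 1). The summed rRNA TPM was 0.111 ± 0.0015 of the summed mRNA TPM. The sources used here do not say whether rRNA was removed before sequencing.

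Together the 13 mRNAs took 2.48% of all TPM in replicate 2 and 2.71% in replicate 1, or 1.24% ± 0.09 of the counts on mouse genes. The 2 rRNAs took 0.288% ± 0.014 of TPM, and the 22 tRNAs took none of it. The 11 nuclear models that copy mitochondrial sequence took another 1.62% of TPM in replicate 2 and 1.67% in replicate 1.

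Of the 7 nuclear models on chromosome 1, 6 stood far above the copies on chromosome 2, and Gm28439 was listed at 0. Gm28437 had 8557 TPM in replicate 2 and 8029 TPM in replicate 1, more than any mitochondrial row. Gm28661, the copy of mt-Co2, had 2898 TPM in replicate 2 and 3531 TPM in replicate 1. Gm28438 and Gm10222, the copies of mt-Nd3 and mt-Nd4l, averaged 1256 ± 28.7 and 623 ± 54.9 TPM. By contrast, the models on chromosome 2 lay between 0.15 and 1.49 TPM across both libraries, although Gm13340 copies mt-Co1 over 1545 nt at 97.6% identity. Gm28439 is identical to 876 nt of mt-Nd4, while mt-Nd4 itself has 502 windows that this copy lacks.

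The fractional counts closed within each gene and its copies. Of the 13 mRNA rows, 7 had a count that was not whole, within 0.005. For all 7 the sum of the row and its nuclear models was whole in both libraries, within 0.015. For mt-Co3 and Gm28437 together the sum was 160058 counts in replicate 2 and 144975 in replicate 1. The mitochondrial row held 8.83% of it in replicate 2 and 13.0% in replicate 1 by the expected count, but 34.4% and 36.3% by the deposited posterior mean count. The deposited posterior SD of the mt-Co3 count was 41105 in replicate 2 and 38376 in replicate 1, close to the posterior mean of 55057 and 52578 counts in the same libraries.

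**Figure D2:**
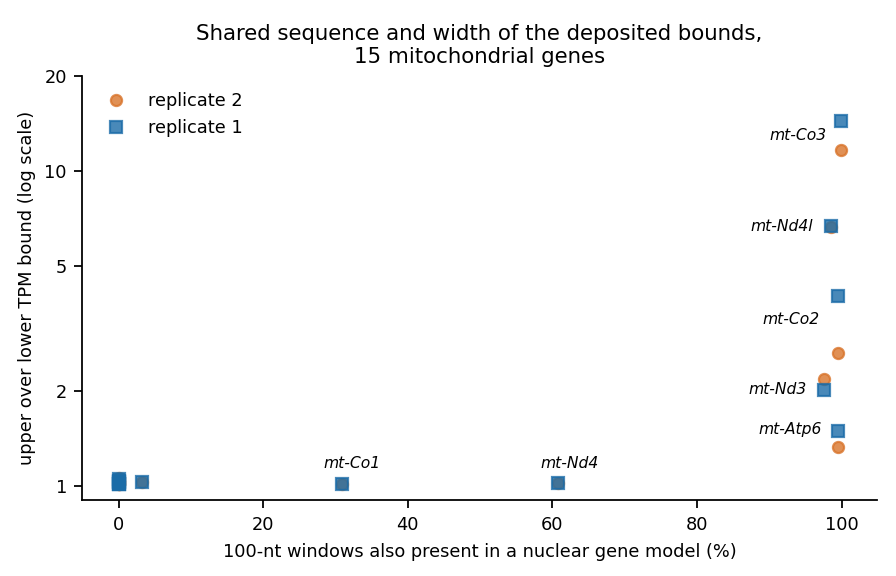
Ratio of the deposited upper to the lower TPM bound (log scale) against the percentage of 100-nt windows that a gene shares with any nuclear gene model, for 15 genes in replicate 2 (circles) and replicate 1 (squares). The ratio lay between 1.33 and 14.4 for the 5 genes with over 90% of windows shared and between 1.01 and 1.06 for the other 10.

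Sharing and the width of the bounds went together across the 15 genes. The 5 genes with over 90% of windows shared, each with 1 to 6 windows of its own, had bounds whose ratio ran from 1.33 for mt-Atp6 to 14.4 for mt-Co3. For the other 10 genes the ratio stayed between 1.01 and 1.06. mt-Nd4, with 60.8% of its windows shared but 502 of its own, had narrow bounds of 1052 to 1075 TPM in replicate 2 and 1235 to 1261 TPM in replicate 1. The bounds do not hold the division of reads alone. For mt-Nd6 and mt-Cytb the posterior SD of the count was 0 in both libraries. Their ratios were still 1.062 and 1.014 in replicate 2. The bounds are given within each library and do not measure the spread between pools.

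Since the sum of a row and its copies does not depend on the division, a combined level was taken as the counts of both over the effective length of the mitochondrial gene. As far as the division of counted reads goes, it is an upper value for the mitochondrial RNA, because the part transcribed from the nucleus was not measured. Reads that fit no gene model whole are not in it. By this level mt-Co3 stood highest, with 9372 in replicate 2 and 9218 in replicate 1 on the TPM scale. mt-Atp6 had 7272 in replicate 2 and 8024 in replicate 1. Its own row held 97.3% of this in replicate 2 and 91.1% in replicate 1. mt-Co2 had 4104 in replicate 2 and 4596 in replicate 1. The 3 oxidase mRNAs and the 2 ATP synthase mRNAs then took the first 5 places, with the range of mt-Co1, 3253 ± 173, overlapping that of mt-Cytb. The place of mt-Co1 depends on how the copies are added. With the TPM of its copies added to that of its row, mt-Co1 had 5308 in replicate 2 and 4935 in replicate 1. That range lay above mt-Cytb and overlapped mt-Atp8.

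The 7 complex I mRNAs took the lowest 7 places on the combined scale, with mt-Nd1 the highest of them. mt-Nd3 averaged 1583 ± 27.4 and mt-Nd4l 668 ± 55.5, against 342 ± 55.7 and 54.1 ± 1.4 TPM for their rows. The ratio of mt-Nd4 to mt-Nd4l, which lie on 1 bicistronic mRNA, was 1.73 in replicate 2 and 1.81 in replicate 1, against 20.5 and 23.2 by row. The ratio of mt-Atp6 to mt-Atp8, the other bicistronic pair, was 1.57 in replicate 2 and 1.54 in replicate 1. The factor between the highest and the lowest mRNA fell to 25.2 ± 5.5.

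**Figure D3:**
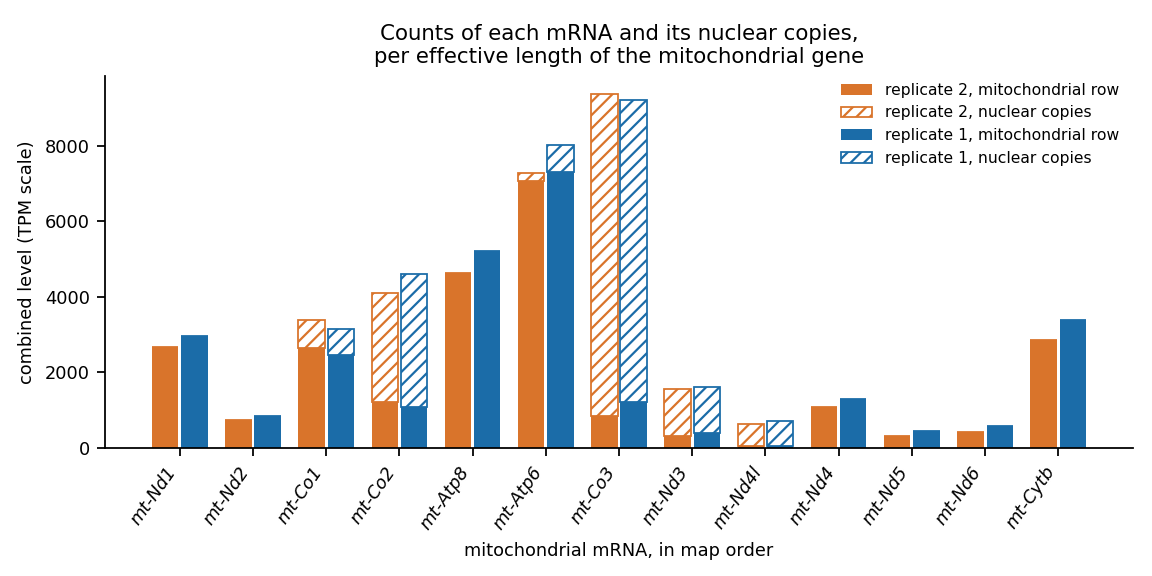
Combined level of each mRNA and its nuclear copies on the TPM scale, in map order, with replicate 2 left of replicate 1, the mitochondrial row filled and the nuclear copies hatched. The hatched part makes up most of mt-Co2, mt-Co3, mt-Nd3 and mt-Nd4l in both libraries.

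Each respiratory complex that contains mitochondrial subunits also has subunits made from nuclear genes, and 71 of these were set beside the 13 mRNAs. The median mitochondrial row was 2.83 times the median nuclear subunit in replicate 2 and 3.31 times in replicate 1, and 6.91 and 8.16 times by the combined level. The gap differed by complex. In complex V, mt-Atp6 and mt-Atp8 had a median of 6050 ± 285 TPM, against 597 ± 34.2 TPM for 15 nuclear subunits, and both lay above the highest of them, the catalytic subunit gene Atp5b at 2850 ± 51.4 TPM. In complex III, mt-Cytb at 3121 ± 363 TPM was above all 9 nuclear subunits, of which Uqcr10 was highest with 779 ± 41.6 TPM.

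Complex IV depended most on the nuclear copies. Its 3 mitochondrial rows had a median of 1210 ± 13.4 TPM, and the combined level a median of 4350 ± 348, against 642 ± 15.1 TPM for 10 nuclear subunits. The highest nuclear subunit, Cox6b1, had 1099 TPM in replicate 2 and 1039 TPM in replicate 1. The rows of mt-Co1 and mt-Co2 were above it within each library, although the lower mt-Co2 value of 1082 TPM fell within the range of Cox6b1. The mt-Co3 row was above it in replicate 1 and below it in replicate 2. By the combined level all 3 lay above Cox6b1. In complex I the median of the 7 mitochondrial rows was 487 ± 113 TPM and of the combined level 778 ± 78.8, against 288 ± 8.5 TPM for 37 nuclear subunits.

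**Figure D4:**
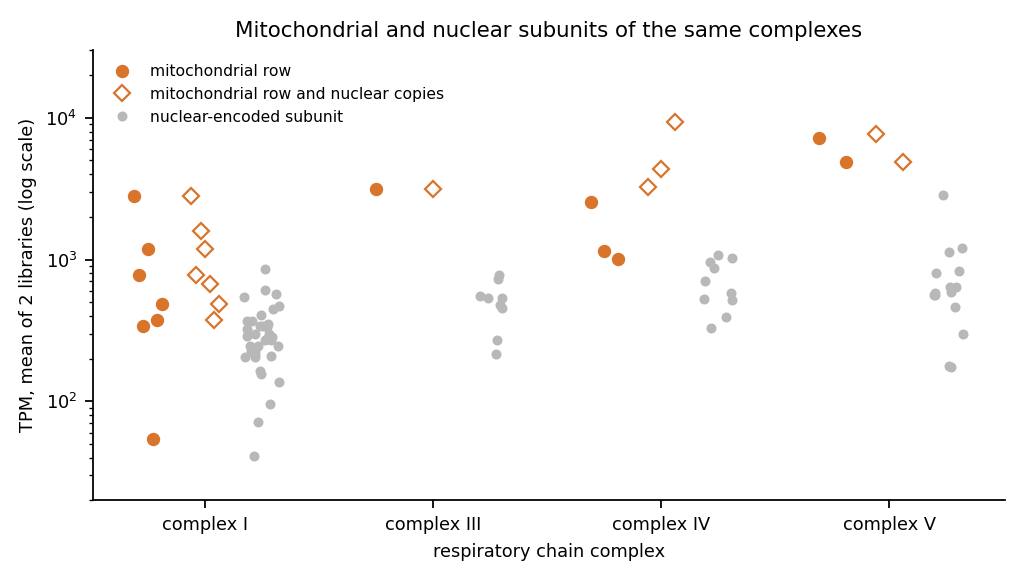
Mean TPM of 2 libraries (log scale) for mitochondrial rows (filled), mitochondrial rows with their nuclear copies (open diamonds) and nuclear-encoded subunits (grey) of complexes I, III, IV and V. Both complex V rows and mt-Cytb lie above all nuclear subunits of their complex, and the complex I rows spread from 54.1 to 2807 TPM across the nuclear range.

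The nuclear genes that maintain and express mitochondrial DNA were all detected. The 9 transcription genes had a median of 29.8 ± 1.5 TPM, with the packaging and initiation factor Tfam at 71.6 ± 1.8 TPM and Polrmt at 54.25 TPM in replicate 2 and 50.42 TPM in replicate 1. The 7 replication genes had a median of 24.3 ± 0.9 TPM, led by Ssbp1, the single-strand binding protein, at 135 ± 2.2 TPM. The 25 RNA processing genes had a median of 37.3 ± 1.4 TPM. Among them Slirp, whose protein binds Lrpprc to stabilise mitochondrial mRNAs, averaged 213.5 ± 3.8 TPM, and Hsd17b10, a subunit of the mitochondrial RNase P, 199 TPM. Grsf1, an RNA granule protein, was 49.52 TPM in replicate 2 and 29.52 TPM in replicate 1. The 9 rRNA modification and ribosome assembly genes had a median of 18.99 ± 0.78 TPM, and the 12 translation genes 40.3 ± 0.4 TPM, with the leucyl-tRNA synthetase gene Lars2 far above the others at 601 ± 43.4 TPM.

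Relative to the bulk of genes, most mitochondrial mRNAs were lower in replicate 2. For this comparison counts were scaled by TMM, which equalises the bulk of genes, and a log2 ratio of replicate 2 over replicate 1 was taken for each of 15363 genes whose mean was 1 CPM or more (counts scaled to library size). Of the 13 rows, 11 were lower and 2 higher, with a median log2 ratio of -0.22, or 0.86-fold, whereas 3 of 13 were lower with scaling to the spike-ins. Over all genes the median was 0.00 and 50.1% were lower. With 1 library on each side this describes the 2 pools and has no test.

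The rows furthest below 1 were mt-Co3, mt-Nd6, mt-Nd5 and mt-Nd3. mt-Nd6 was 0.71-fold and mt-Nd5 0.74-fold in replicate 2 over replicate 1. The rows of mt-Co3 and mt-Nd3 were 0.68-fold and 0.79-fold. These 4 of 13 rows were at least 1.2-fold lower in replicate 2, as were 11.6% of all genes, and 2 of 13 remained on the combined level, mt-Nd5 and mt-Nd6. None of the 13 was at least 1.5-fold lower, against 3.85% of all genes, and none was at least 1.2-fold higher, against 7.99%.

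For mt-Co3, mt-Nd3 and mt-Co2 the ratio of the row was far from that of the sum. mt-Co3 with its copy was 1.01-fold and mt-Nd3 with its copy 0.97-fold. The mt-Co2 row had a log2 ratio of 0.16 and its sum with both copies -0.17, so the direction turned. mt-Atp6 and mt-Nd4l moved by less, with log2 ratios of -0.06 for each row and of -0.15 and -0.18 for the sums, and mt-Nd2, mt-Nd4 and mt-Co1 hardly moved. mt-Co1 was higher in replicate 2 on both scales, with log2 ratios of 0.10 by row. The 5 mRNAs without a shared window, mt-Nd1, mt-Atp8, mt-Nd5, mt-Nd6 and mt-Cytb, had a median of -0.25. The rRNAs had log2 ratios of -0.16 for mt-Rnr2, the same as for mt-Nd1, and 0.03 for mt-Rnr1.

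**Figure D5:**
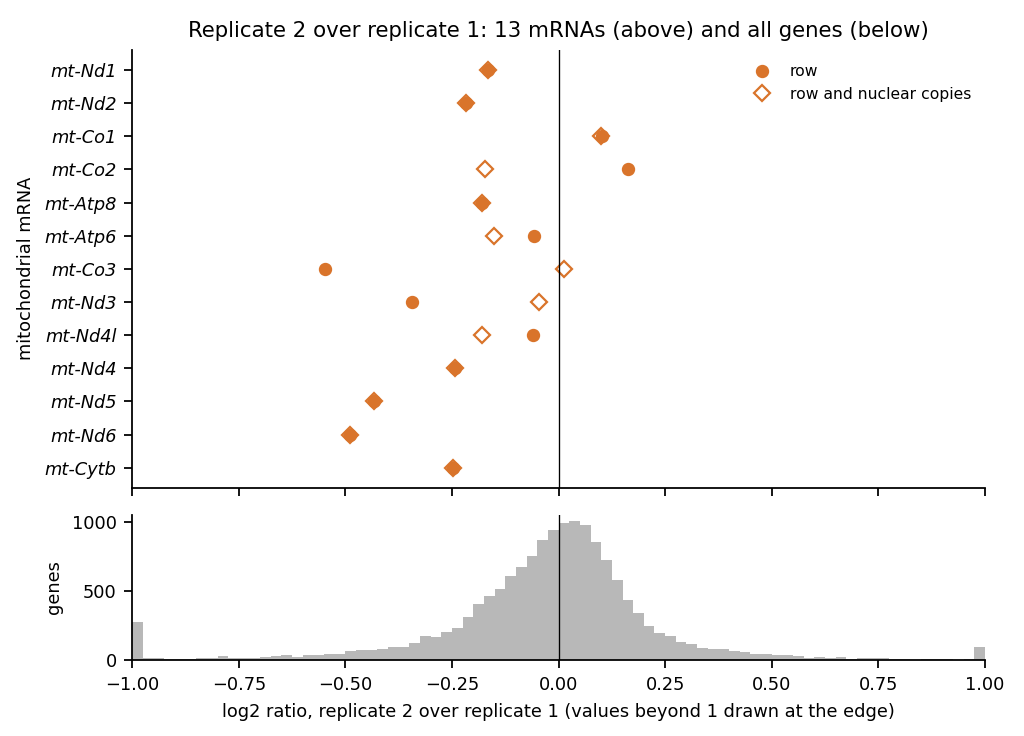
Upper panel, log2 ratio of replicate 2 over replicate 1 after TMM scaling for the 13 mRNAs in map order, as rows (filled) and with nuclear copies (open diamonds), and lower panel, the same ratio for 15363 genes. Filled points of 11 mRNAs lie left of 0 (3 with spike-in scaling, not drawn), and the points of mt-Co3 and mt-Co2 move most when the copies are added.

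The nuclear subunits of the same complexes lay on the other side. Of the 71, 61 had a ratio above 1 in replicate 2 over replicate 1, with a median log2 ratio of 0.08. Among all genes, 7673 of 15363 had a ratio above 1. The count was 15 of 15 in complex V, 9 of 9 in complex III, 31 of 37 in complex I and 6 of 10 in complex IV. Of the 71, 1 was at least 1.2-fold higher, against 7.99% of all genes. The 62 genes of mitochondrial DNA maintenance and expression were divided, 32 higher and 30 lower. With scaling to the spike-ins, the median of the 13 mRNAs was above 0, at 0.21, while that of all genes was 0.43. The distance of 0.22 below the median gene was thus the same under both scalings. This holds by construction, because a change of scaling shifts all ratios nearly alike.

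Markers of kidney and other tissues are given beside these ratios. All 16 kidney markers were detected, with a median of 76.6 ± 1.7 TPM. In replicate 2 over replicate 1, 10 had a ratio below 1 and 6 above 1, while 50.1% of all genes were below 1. At least 1.2-fold lower was 1 of the 16, against 11.6% of all genes. It was Pax2, a nephron and ureteric bud regulator, with 19.99 TPM in replicate 2 and 27.25 TPM in replicate 1. At least 1.2-fold higher were 2 of the 16, against 7.99% of all genes. The collecting duct water channel Aqp2 had 133.6 TPM in replicate 2 and 89.59 TPM in replicate 1. The loop of Henle gene Umod had 8.48 TPM in replicate 2 and 6.75 TPM in replicate 1. The 5 erythroid, 3 endothelial and 3 macrophage markers were detected too. They summed to 20122, 369.2 and 80.45 TPM in replicate 2 and to 20960.5, 356.3 and 79.91 TPM in replicate 1. The adrenal markers summed to 81.81 TPM in replicate 2 and 48.69 TPM in replicate 1. All 3 were at least 1.2-fold higher in replicate 2, against 7.99% of all genes. The 3 skeletal muscle markers summed to 160.5 TPM in replicate 2 and 71.3 TPM in replicate 1, mostly through Acta1. Mylpf did not rise with it, at 21.17 TPM in replicate 2 and 22.44 TPM in replicate 1, and Myod1 was under 1 TPM in both. The heart markers summed to 32.45 TPM in replicate 2 and 8.62 TPM in replicate 1, mostly through Tnnt2. Myh6 and Nppa were under 1 TPM, with Myh6 lower and Nppa higher in replicate 2. The part of all these markers in the lower mitochondrial ratios was not tested, and fewer cells of a type and less RNA per cell cannot be told apart in such pools.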

How the data were processed

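Total RNA-seq of 2 libraries of embryonic mouse kidney was analysed from the gene and transcript tables that the authors deposited. The genome build is mm10 with gene models of M4, per the deposited text notes. Not given in the sources used here are the aligner, the quantifier, the strandedness and any rRNA removal. The deposited expected counts are estimated counts, in which reads that match several genes are divided. In the deposited TPM the authors correct for effective length and set an equal total for each library. FPKM, also deposited, was used only for an alternative share. The deposited posterior mean counts and the lower and upper TPM bounds, a signal that is never negative, describe the same division of reads. TPM lay above the upper bound in 10 of 15 rRNA and mRNA rows in replicate 2 and 9 in replicate 1, while the posterior mean TPM lay within the bounds in all. The percent that each transcript takes of its gene, as deposited, was 100 for the 15 expressed members, which have 1 transcript each.

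Names, coordinates and sequences come from GENCODE M21 on GRCm38, whose reference strain is C57BL/6J, and strain differences from B6NCrl were not analysed here. Nuclear copies were found with BLAST 2.17.0 (at least 100 nt at 95% identity) among annotated transcripts, so copies outside gene models were not used here. Rows with an effective length under 50 nt, here the tRNAs, were kept apart. After rounding of expected counts to whole numbers, TMM scaling was done in edgeR 4.0.16 (R 4.3.3), with DESeq2 1.42.0 size factors as an alternative and a prior count of 2 in log2 ratios. A mean of at least 1 CPM was required, and 10 counts on 1000 nt equal 0.401 TPM in replicate 2 and 0.436 TPM in replicate 1. The ratios were tested on simulated data with 200 changed genes. Tables were made in Python 3.11.15 with numpy 2.4.6, pandas 2.3.3 and scipy 1.17.1, and figures with matplotlib 3.10.9.

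Lists of nuclear subunits, of genes for mitochondrial gene expression and of cell type markers were written from textbook knowledge, and each member could be named. Ndufb1 was not matched. The members and the lists were chosen with earlier results of these data known. The libraries are labelled biological replicates, and with 1 group no test between groups was made.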

Additional observations from a re-analysis of the deposited data

How the results depend on the processing

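The share of the 13 mRNAs was 2.60% of TPM and between 2.60% and 2.75% of FPKM, posterior mean TPM, mouse genes alone or entries of longer effective length. It was 1.21% of expected counts over all entries with spike-ins, against 1.24% of those on mouse genes, and counts are not corrected for length. The share was 4.24% with the TPM of nuclear copies added and 4.05% with their counts taken over the length of the mitochondrial gene. That last form was chosen after seeing the data for each result. The ratio of rRNA to mRNA, 0.111, was 0.102 with posterior means, 0.126 per annotated length, and 0.0680 and 0.0712 with copies in the 2 forms. The factor between the highest and the lowest mRNA, 133, was 77.8 with posterior means, 170.5 per annotated length, and 25.3 and 25.2 with copies. The light-strand share, 1.86%, was 1.14% and 1.197% with copies. The ratio of mitochondrial to nuclear subunits, 3.07, was 5.36 with posterior means, 4.14 by the mean, and 7.54 with copies in both forms. The tRNA share was 0 in every setting run. The median log2 ratio of replicate 2 over replicate 1, -0.217, turned to 0.215 with spike-in scaling, where the median of all genes was 0.430. It was -0.234 by library size, -0.207 without a filter, -0.207 by TPM, -0.209 by the mean, -0.179 with copies and -0.217 with DESeq2 size factors. By library, the share ran from 2.48% to 2.71%, the rRNA ratio from 0.110 to 0.112, the factor from 132.7 to 133.3, the light-strand share from 1.64% to 2.09% and the subunit ratio from 2.83 to 3.31. No paired analysis was possible because the samples form 1 group. The causes of these changes were not tested beyond what each setting's construction shows. Counting error is small at these depths, and the division of shared reads limits mt-Co2, mt-Co3, mt-Atp6, mt-Nd3 and mt-Nd4l. The mt-Co1 row had narrow bounds, but it held only 78.5% ± 0.1 of the counts of itself and its copies.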

Other observations

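The nuclear-encoded proteins of the mitochondrial ribosome, which assemble on the 2 rRNAs, were all detected at 1 TPM or more in both libraries. The 48 large-subunit genes had a median of 99.8 ± 0.2 TPM and the 29 small-subunit genes 84.75 ± 1.36 TPM. The highest was Mrpl17 with 311 ± 0.7 TPM in the large subunit and Mrps21 with 310 ± 6.0 TPM in the small subunit. The lowest were Mrpl35 with 20.9 TPM and Mrps31 with 33.6 TPM. In replicate 2 over replicate 1, 33 of 48 large-subunit and 24 of 29 small-subunit genes had a ratio above 1, with median log2 ratios of 0.05 and 0.04. Among all genes, 7673 of 15363 had a ratio above 1. At least 1.2-fold higher were 1 large-subunit and 0 small-subunit genes, against 7.99% of all genes.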
